A study of Mus musculus with 8 samples.

Results

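The unfolded protein response (UPR) and ATF4 genes described here are a list of 41 genes, of 22180 with a probe of their own on the array. They fall into 14 endoplasmic reticulum (ER) chaperones and folding factors, 6 UPR regulators and genes of ER-associated degradation (ERAD) or translocation, 7 genes for ATF4 and stress regulators, 10 enzymes of amino acid and one-carbon synthesis and 4 amino acid transporters. Each gene is represented by the probe that carries its symbol alone and has the highest mean over the tumours. In this way 39 of the 41 had a value, and all 39 passed the filter on dim genes (a mean log2 signal of at least 4.06). The probe for Pdia4 carries a second symbol, and the level of Pycr1 is not analysed here.

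The study profiled 8 primary mammary tumours, all from FVB transgenic animals, on 1 Affymetrix whole-transcript array each. In 4 tumours, labelled NeuNT/H1074R, NeuNT was combined with the H1074R allele, a mutation named after a residue of p110α (a catalytic subunit of phosphoinositide 3-kinase, PI3K), and 4 tumours, labelled NeuNT, carried NeuNT without it. NeuNT, a form of the receptor tyrosine kinase ErbB2 (Neu in rodents), was thus shared by both groups. The series title spells the mutation H1047R and the sample labels spell it H1074R. The sources used here do not give the promoter behind the transgenes, the age of the mice or whether each tumour came from a separate mouse, so p-values speak of spread among these 8 tumours alone. Values are log2 signals as deposited, replicates are numbered 1 to 4 within a genotype, and every difference is NeuNT/H1074R minus NeuNT on the log2 scale. In a whole tumour, fewer cells of a type and less RNA per cell cannot be told apart.

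The UPR is the cell's answer to unfolded protein in the ER. Its sensors are IRE1, which splices Xbp1 mRNA, ATF6, which is cut to release a transcription factor, and PERK, which phosphorylates eIF2α. XBP1 and ATF6 raise chaperone and ERAD genes, while phosphorylated eIF2α lets ATF4 be translated. ATF4 can also be raised without ER stress, through the amino acid sensor GCN2 or through mTORC1 downstream of PI3K, and it drives genes of amino acid synthesis and uptake. An array reads mRNA, so neither Xbp1 splicing nor ATF4 protein was measured.

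The promoters of the members differ in the response elements they hold. The sequences are from RefSeq (GRCm38.p6), which held a promoter, from 250 bases before to 50 after the annotated start site, for 36 of the 41 genes. The ER stress response element, bound by NF-Y with ATF6 or XBP1, was searched on both strands as CCAAT followed after 9 bases by CCACG (ERSE), or as ATTGG followed after 1 base by CCACG (ERSE-II). The C/EBP-ATF response element (CARE), bound by ATF4 with C/EBP proteins, was searched on both strands as TGATG and AA with any 1 base between them. ERSE was in 0.119% of all 32851 promoters and in those of 7 members, all ER chaperones or folding factors (Hspa5, Hsp90b1, Calr, Canx, Pdia6, Dnajc3 and Creld2). ERSE-II was in 0.0365% of promoters, among them Dnajb11 and Herpud1. CARE was in 3.97% of promoters and in 7 members: Asns, Pycr1, Slc7a11, Chac1, Trib3, Vldlr and Herpud1. No promoter of the 12 chaperones with a sequence held a CARE, and none of the 19 ATF4, synthesis and transport genes with a sequence held an ERSE or ERSE-II. At the low shares over all promoters, most sets of so few genes would lack these elements too, so the absences alone do not set the groups apart. A match describes letters, not binding.

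The sequences below show the elements of genes described in full further on, read 5′ to 3′ on the gene's strand upstream of its start site, with the element in capitals. Creld2 and Vldlr carry theirs on the opposite strand, as do the CARE of Herpud1 and the second CARE of Slc7a11.
Hspa5, chr2:34772005-34772063, plus strand: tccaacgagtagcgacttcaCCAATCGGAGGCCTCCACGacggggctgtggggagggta
Creld2, chr15:88819500-88819558, plus strand: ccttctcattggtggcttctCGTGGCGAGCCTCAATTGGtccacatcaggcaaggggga
Dnajc3, chr14:118937807-118937865, plus strand: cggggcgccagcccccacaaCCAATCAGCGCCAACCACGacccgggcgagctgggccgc
Herpud1, chr8:94386297-94386407, plus strand: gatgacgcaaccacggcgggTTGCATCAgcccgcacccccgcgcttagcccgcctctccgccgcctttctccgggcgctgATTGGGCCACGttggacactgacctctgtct
Vldlr, chr19:27216800-27216847, plus strand: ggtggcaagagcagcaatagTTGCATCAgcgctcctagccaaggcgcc
Asns, chr6:7693210-7693252, minus strand: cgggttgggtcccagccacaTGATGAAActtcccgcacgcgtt
Slc7a11, chr3:50443633-50443699, minus strand: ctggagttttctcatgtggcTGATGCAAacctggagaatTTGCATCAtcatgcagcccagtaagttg

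**Figure D1:**
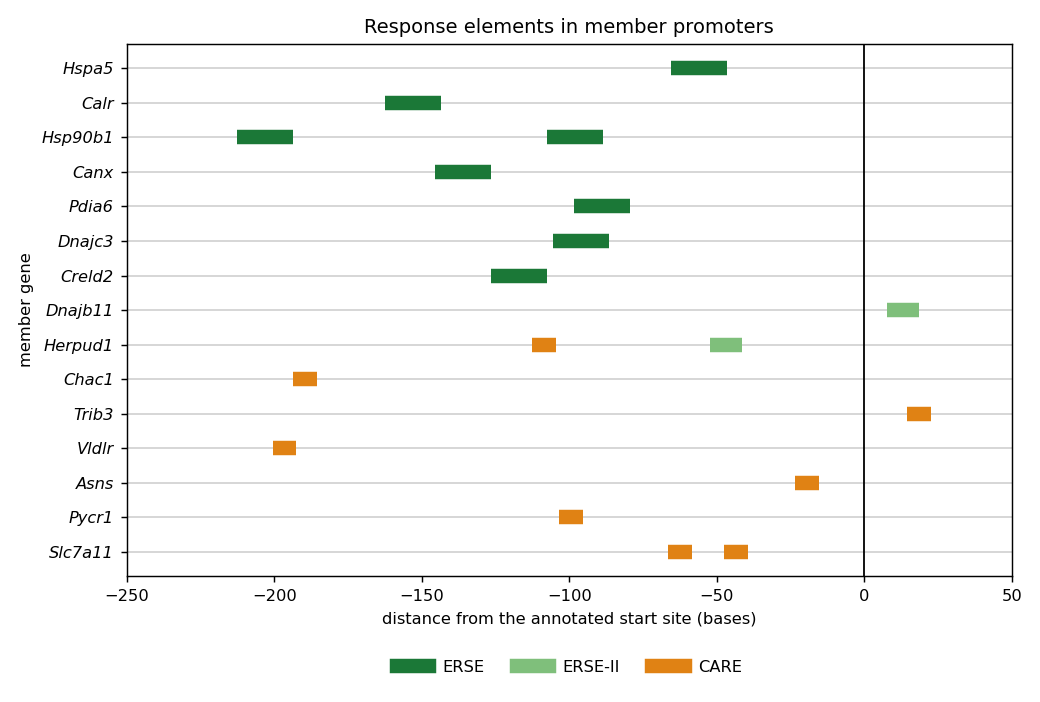
Positions of ERSE (dark green), ERSE-II (light green) and CARE (orange) in the promoters of the 15 members that hold one; the x axis is the distance from the annotated start site in bases and each row is a gene. ERSE lies in chaperone genes, CARE in ATF4, synthesis and transport genes, and Herpud1 holds ERSE-II and CARE.

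Array medians lay between 4.81 and 4.87, and the median SD within genotypes over the 16635 genes tested was 0.248. Across these genes 0 passed an adjusted p of 0.05 (0% of genes; limma with Benjamini-Hochberg adjustment), and 635, or 3.82%, had an unadjusted p under 0.05. Erbb2 ranged from 8.89 to 9.49 in NeuNT/H1074R tumours and from 8.73 to 10.28 in NeuNT tumours, and Pik3ca from 8.10 to 8.35 in NeuNT/H1074R and from 8.22 to 8.36 in NeuNT tumours. All 14 luminal epithelial markers were above the dim limit, with mean levels of 9.02 to 9.70 in NeuNT/H1074R and 9.34 to 9.54 in NeuNT tumours. In NeuNT/H1074R tumours, the mean level was 7.67 to 8.87 for macrophage markers, 7.86 to 8.68 for fibroblast, 5.51 to 6.24 for adipocyte and 5.05 to 6.91 for skeletal muscle markers. In NeuNT tumours the same lists stood at 8.30 to 8.98, 7.94 to 9.11, 5.76 to 7.11 and 4.87 to 5.36. Secretory alveolar genes had 6.26 to 8.19 in NeuNT/H1074R and 7.36 to 9.47 in NeuNT tumours, and squamous genes 5.50 to 7.63 in NeuNT/H1074R and 4.74 to 9.72 in NeuNT tumours. Plasma and B cell markers, with Tnfrsf17 and Ms4a1 dim, had 4.91 to 5.32 in NeuNT/H1074R and 5.15 to 5.96 in NeuNT tumours, and cell cycle genes 6.63 to 7.92 in NeuNT/H1074R and 6.78 to 7.82 in NeuNT tumours.

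ER chaperones and folding factors were slightly lower on average in NeuNT/H1074R tumours, without passing the test. Of 13 measured, 12 had a difference below 0, against 50.5% of all genes tested, with a median of −0.16 against −0.0027 over all genes. The differences ran from −0.32 to 0.00, and 0 of 13 passed the test (limma, adjusted p of at least 0.978). Hspa5 and Manf did not overlap between genotypes, where 1.10% of all genes were lower without overlap. The median SD within genotypes, 0.192, was below the 0.248 of all genes, but the chaperones were brighter (median level 9.29 against 6.42). Translocation genes outside the members, at a median level of 9.15, had a lower median SD of 0.15. No cell marker passed the test between genotypes, but macrophage markers had 12 of 12 differences below 0 (median −0.34), adipocyte 10 of 11 (−0.44), fibroblast 10 of 12 (−0.23) and plasma and B cell markers 6 of 7 (−0.33). Secretory alveolar genes had 8 of 9 below 0 (−2.03) and cell cycle genes 12 of 13 (−0.27), luminal markers 9 of 14 (−0.11) and squamous genes 7 of 11 (−0.11), while skeletal muscle had 13 of 13 above 0 (0.65). The part of these markers in the chaperone levels was not tested.

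Hspa5 encodes BiP, the Hsp70 chaperone of the ER that also holds the UPR sensors inactive. Its log2 signal was 9.40, 9.19, 8.99 and 9.33 in NeuNT/H1074R replicates 1 to 4, and 9.51, 9.57, 9.59 and 9.45 in NeuNT replicates 1 to 4. All 4 NeuNT/H1074R tumours lay below all 4 NeuNT tumours. The difference of −0.30 ± 0.12 (SE) had a 95% interval from −0.58 to −0.03 and an unadjusted p of 0.0327, and did not pass (limma, adjusted p = 0.978).

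Manf, a secreted factor that binds BiP, stood at 5.79, 5.63, 5.55 and 5.82 in NeuNT/H1074R tumours and 5.84, 6.10, 5.86 and 5.96 in NeuNT tumours. The groups did not overlap, the nearest values being 5.82 and 5.84, and the difference was −0.24 ± 0.12 (SE; limma, adjusted p = 0.978). Creld2, an ER protein with disulfide isomerase activity, had 9.16, 8.73, 9.30 and 8.81 in NeuNT/H1074R tumours and 9.11, 9.44, 9.52 and 9.20 in NeuNT tumours. Its groups overlapped through NeuNT/H1074R replicates 1 and 3. Replicate 3 was the highest of its genotype here, whereas it was the lowest for Hspa5, and the difference was −0.32 ± 0.17 (SE; limma, adjusted p = 0.978).

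Dnajc3 encodes p58IPK, a co-chaperone that also inhibits eIF2α kinases. It had 8.85, 9.25, 8.67 and 9.15 in NeuNT/H1074R tumours and 9.21, 9.63, 9.12 and 8.99 in NeuNT tumours (difference −0.25 ± 0.19 SE; limma, adjusted p = 0.978). The groups overlapped, with NeuNT/H1074R replicates 1 and 3 lowest.

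Dnajb9 encodes ERdj4, a BiP co-chaperone and a target of spliced XBP1, and varied most within genotypes among the chaperones. It had 8.39, 9.05, 8.32 and 9.59 in NeuNT/H1074R tumours and 8.95, 8.96, 8.91 and 8.52 in NeuNT tumours. NeuNT/H1074R tumours thus held both the highest values, in replicates 4 and 2, and the lowest, in replicates 3 and 1, and the means were 8.84 and 8.83 (difference 0.00 ± 0.28 SE; limma, adjusted p = 0.999).

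The other chaperones had small differences. The Hsp90 paralogue Hsp90b1 differed by −0.16, the disulfide isomerases Pdia3 and Pdia6 by −0.18 and −0.15, and the lectin chaperones Calr and Canx by −0.10 and −0.0012. The BiP co-factors Dnajb11 and Sdf2l1 differed by −0.21 and −0.15, and the nucleotide exchange factor Hyou1 by −0.0060. None passed, and the signs of Canx and Hyou1 turned positive with quantile normalization and with centred arrays, and that of Canx also with array weights.

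**Figure D2:**
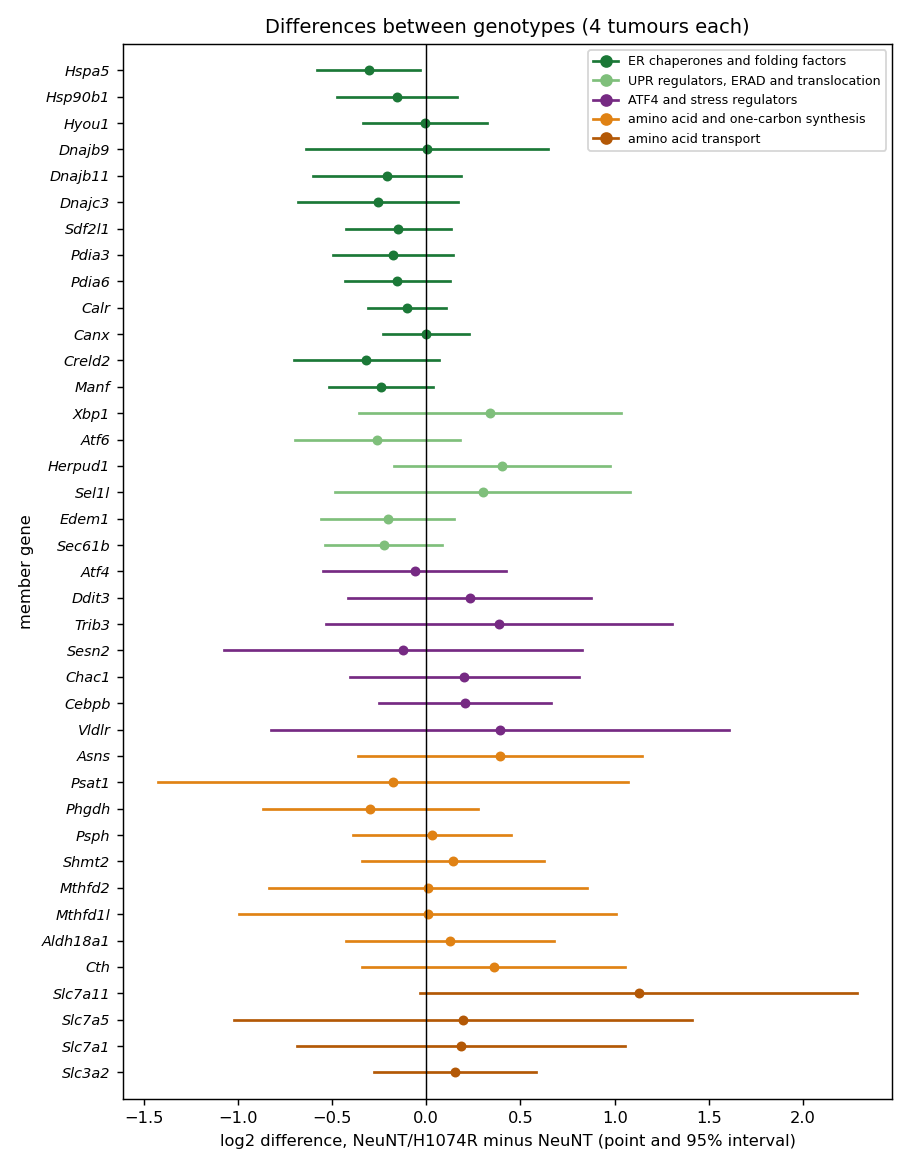
Log2 difference between genotypes (x axis, NeuNT/H1074R minus NeuNT; point and 95% interval from limma, 4 tumours each) for the 39 members (rows), coloured by role. The 13 chaperones lie between −0.32 and 0.00, most with narrow intervals, though that of Dnajb9 runs from −0.64 to 0.64. The interval of Hspa5 ends at −0.03. Most transporters and synthesis enzymes have wider intervals, such as −0.03 to 2.29 for Slc7a11.

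The transcription factors and ERAD genes of the UPR did not move as a block: 3 of 6 had a difference above 0 and 3 below, with a median of 0.05. None passed, and none was without overlap. Xbp1 encodes the factor that IRE1 activates by splicing. It had 11.83, 11.17, 11.87 and 11.12 in NeuNT/H1074R tumours and 11.30, 10.31, 11.48 and 11.56 in NeuNT tumours (difference 0.34 ± 0.31 SE; limma, adjusted p = 0.978). NeuNT/H1074R replicates 1 and 3 were high and NeuNT replicate 2 was the lowest of all. Without that lowest tumour the difference was 0.055.

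Atf6, the second UPR transcription factor, had 7.97, 7.79, 7.57 and 7.91 in NeuNT/H1074R tumours and 8.35, 7.85, 8.40 and 7.69 in NeuNT tumours (difference −0.26 ± 0.19 SE; limma, adjusted p = 0.978). Its highest values were in NeuNT replicates 1 and 3, and the other NeuNT tumours lay among the NeuNT/H1074R ones. Herpud1, an ERAD scaffold whose promoter holds both kinds of element, had 9.33, 10.11, 9.69 and 10.08 in NeuNT/H1074R tumours and 9.59, 9.81, 8.84 and 9.37 in NeuNT tumours (difference 0.40 ± 0.25 SE; limma, adjusted p = 0.978). NeuNT/H1074R replicates 2 and 4 stood above every other tumour.

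Sel1l, the adaptor of the ERAD ubiquitin ligase HRD1, had 9.32, 10.31, 9.36 and 10.44 in NeuNT/H1074R tumours and 10.22, 9.43, 9.60 and 8.98 in NeuNT tumours. NeuNT/H1074R replicates 2 and 4 were again highest, followed by NeuNT replicate 1, and the difference was 0.30 ± 0.34 (SE; limma, adjusted p = 0.978). Sec61b, a subunit of the translocation channel, had 4.93, 4.69, 5.13 and 5.00 in NeuNT/H1074R tumours and 5.22, 5.08, 4.97 and 5.38 in NeuNT tumours (difference −0.23 ± 0.14 SE; limma, adjusted p = 0.978). Its second probe, dimmer at a mean of 3.98, gave 0.05. Edem1, a lectin that sends glycoproteins to degradation, differed by −0.20, and by 0.09 on its dimmer probe.

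ATF4 and the stress regulators had 5 of 7 differences above 0, against 49.5% of all genes, with a median of 0.21, and none passed. Their median SD within genotypes was 0.447. Atf4 had 8.54, 8.34, 8.94 and 8.43 in NeuNT/H1074R tumours and 8.46, 8.27, 9.13 and 8.64 in NeuNT tumours, with the third replicate highest in each genotype. The means of 8.56 and 8.62 differed by −0.06 ± 0.21 (SE; limma, adjusted p = 0.988).

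Ddit3 encodes CHOP, a pro-apoptotic transcription factor induced by ATF4. It had 6.81, 6.28, 7.45 and 7.03 in NeuNT/H1074R tumours and 6.40, 6.69, 7.22 and 6.34 in NeuNT tumours (difference 0.23 ± 0.28 SE; limma, adjusted p = 0.978). Its highest values lay in the same pair of tumours as those of Atf4, and the difference was 0.045 without NeuNT/H1074R replicate 3. Trib3, a pseudokinase that ATF4 and CHOP induce and that is known to bind AKT, had 7.53, 7.77, 7.82 and 7.78 in NeuNT/H1074R tumours and 8.33, 6.38, 7.88 and 6.76 in NeuNT tumours. The NeuNT/H1074R tumours lay close together while NeuNT tumours held both extremes, and the difference was 0.39 ± 0.40 (SE; limma, adjusted p = 0.978). With single tumours left out it ran from 0.069, without NeuNT replicate 2, to 0.72, without NeuNT replicate 1.

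Vldlr, a lipoprotein receptor known as an ATF4 target, varied most in this group. It had 6.88, 8.13, 7.91 and 8.58 in NeuNT/H1074R tumours and 8.24, 6.52, 8.48 and 6.70 in NeuNT tumours (difference 0.39 ± 0.53 SE; limma, adjusted p = 0.978). The low values, in 1 NeuNT/H1074R and 2 NeuNT tumours, lay over 1 log2 unit below the rest, and the difference was 0.068 without NeuNT replicate 2. Cebpb, a partner of ATF4 on CARE sites, had 8.91, 8.72, 9.13 and 8.93 in NeuNT/H1074R tumours and 8.79, 8.22, 9.18 and 8.68 in NeuNT tumours (difference 0.21 ± 0.20 SE; limma, adjusted p = 0.978). Chac1, which degrades glutathione, differed by 0.20, and Sesn2, an inhibitor of mTORC1, by −0.12. The difference of Cebpb was 0.040 without NeuNT replicate 2, and that of Chac1 was 0.024 without NeuNT/H1074R replicate 3. NeuNT replicate 2 was the lowest tumour for 5 of these 7 genes, where 15.7% of all genes tested were lowest in it.

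Amino acid and one-carbon enzymes had no common difference between genotypes, but 1 tumour stood out. Of 9 measured, 7 had a difference above 0, against 49.5% of all genes (median 0.03), and none passed. NeuNT/H1074R replicate 3 held the highest value of 8 of the 9, where 11.0% of all genes tested were highest in it. This tumour was singled out after its values had been seen. Mthfd1l was the exception, highest in NeuNT replicate 3.

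Asns, the asparagine synthetase and a standard readout of ATF4, had 7.67, 7.65, 8.97 and 7.65 in NeuNT/H1074R tumours and 7.52, 7.10, 7.93 and 7.82 in NeuNT tumours. Apart from replicate 3 the NeuNT/H1074R tumours lay close together and inside the NeuNT range. The difference of 0.39 ± 0.33 (SE; limma, adjusted p = 0.978) was 0.07 without replicate 3. Psat1, of the serine synthesis pathway, had 7.88, 6.41, 8.46 and 6.10 in NeuNT/H1074R tumours and 6.71, 7.07, 7.89 and 7.88 in NeuNT tumours (difference −0.18 ± 0.55 SE; limma, adjusted p = 0.988). NeuNT/H1074R tumours again held both extremes.

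Phgdh, the first enzyme of serine synthesis, had 5.16, 5.20, 6.27 and 5.26 in NeuNT/H1074R tumours and 5.70, 5.97, 5.78 and 5.62 in NeuNT tumours. All NeuNT/H1074R tumours but replicate 3 lay below every NeuNT tumour, and the difference was −0.30 ± 0.25 (SE; limma, adjusted p = 0.978), or −0.56 without replicate 3. Cth, which makes cysteine from cystathionine, had 4.41, 4.61, 5.71 and 4.87 in NeuNT/H1074R tumours and 4.58, 4.62, 3.99 and 4.98 in NeuNT tumours (difference 0.36 ± 0.31 SE; limma, adjusted p = 0.978). Several of its values were near the dim limit of 4.06, and the difference was 0.087 without NeuNT/H1074R replicate 3.

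Replicate 3 likewise led for Psph, the last enzyme of serine synthesis (6.75, against 6.08 to 6.15 in the other NeuNT/H1074R and 6.03 to 6.45 in NeuNT tumours). It led for the mitochondrial folate enzyme Mthfd2 (7.20, against 5.48 to 6.03 and 5.79 to 6.44 in the same groups). The mitochondrial serine hydroxymethyltransferase Shmt2 (9.96) and the proline enzyme Aldh18a1 (8.43) were also highest there, Aldh18a1 with NeuNT replicate 2 close behind at 8.33.

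Amino acid transporters had 4 of 4 differences above 0, against 49.5% of all genes, with a median of 0.19, and none passed. With single tumours left out, those of Slc7a5 and Slc7a1 fell as low as −0.35 and −0.086. Slc7a11 encodes the cystine importer xCT, which feeds glutathione synthesis. It had 6.18, 5.77, 5.45 and 6.32 in NeuNT/H1074R tumours and 3.69, 4.01, 5.50 and 6.01 in NeuNT tumours. NeuNT replicates 1 and 2 were below the dim limit, and the other NeuNT tumours lay among the NeuNT/H1074R ones. The difference of 1.13 ± 0.51 (SE) was the largest among the 39 members, with a 95% interval from −0.03 to 2.29 and an unadjusted p of 0.0553 (limma, adjusted p = 0.978). Its second probe, at a mean of 2.93, gave 0.08.

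Slc7a5 encodes LAT1, the leucine importer upstream of mTORC1. It had 11.05, 10.10, 10.97 and 9.81 in NeuNT/H1074R tumours and 10.78, 8.66, 10.98 and 10.72 in NeuNT tumours (difference 0.20 ± 0.53 SE; limma, adjusted p = 0.988). NeuNT replicate 2 stood over 1 log2 unit below every other tumour. Slc7a1, the arginine and lysine importer, had 7.48, 6.91, 8.13 and 6.78 in NeuNT/H1074R tumours and 6.52, 6.75, 7.89 and 7.42 in NeuNT tumours (difference 0.18 ± 0.38 SE; limma, adjusted p = 0.987). As with Atf4 and Ddit3, the third replicate was highest in each genotype. Slc3a2, the heavy chain that pairs with LAT1 and xCT, had 10.85, 11.16, 10.82 and 11.34 in NeuNT/H1074R tumours and 10.66, 11.20, 11.12 and 10.57 in NeuNT tumours (difference 0.15 ± 0.19 SE; limma, adjusted p = 0.978). It did not follow its partner Slc7a5: NeuNT replicate 2, lowest for Slc7a5, was among the highest for Slc3a2.

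**Figure D3:**
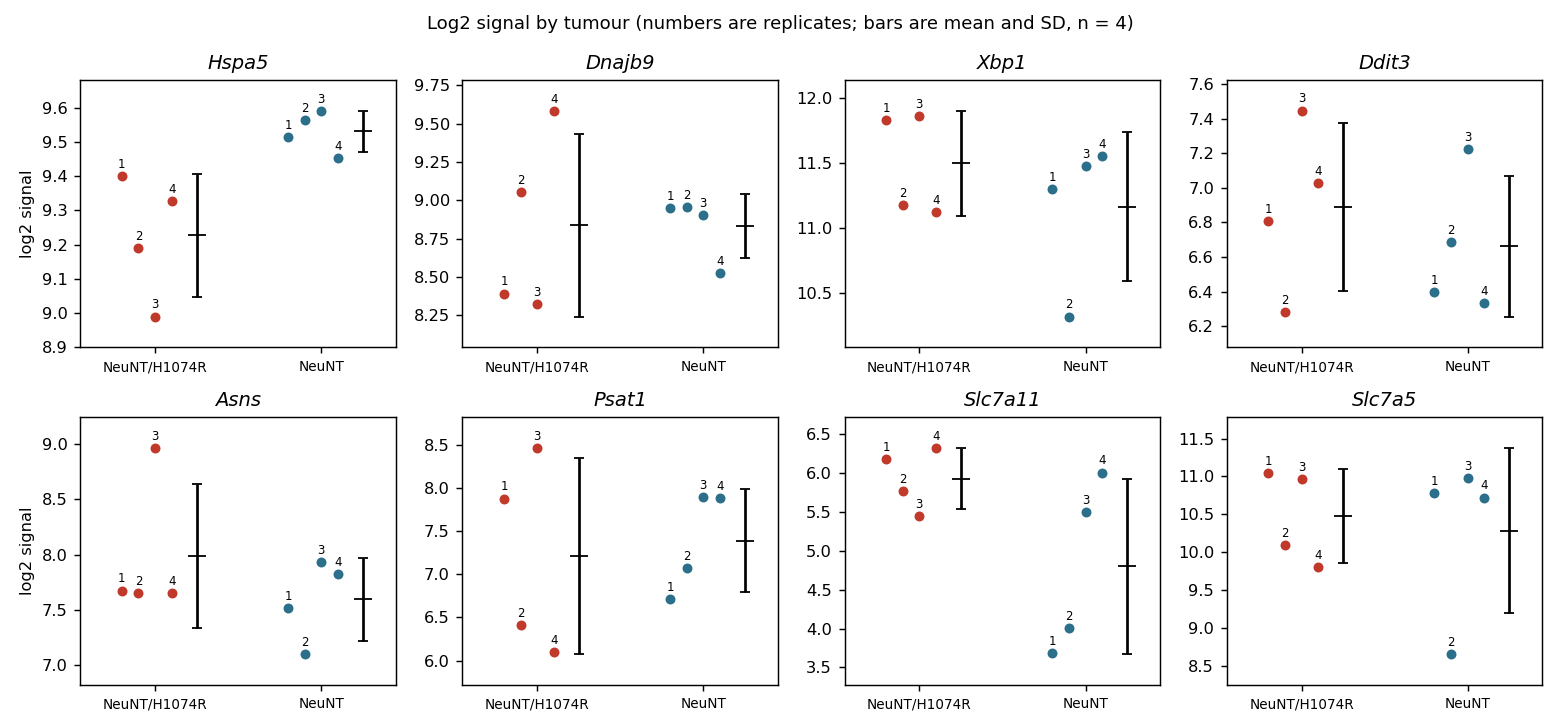
Log2 signal of 8 members in each tumour (points, numbered by replicate; NeuNT/H1074R in red, NeuNT in blue), with mean and SD (n = 4) beside each group. Hspa5 separates the genotypes without passing the test, Asns stands at 8.97 in NeuNT/H1074R replicate 3 alone, and Slc7a11 is low in NeuNT replicates 1 and 2; each panel has its own axis.

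Set against each other, ER chaperones and amino acid genes went opposite ways in that same tumour. For each tumour, the deviations of a group's members from their 8-tumour means were averaged. The 13 chaperones averaged −0.01, −0.08, −0.22 and −0.01 in NeuNT/H1074R replicates 1 to 4, and 0.08, 0.11, 0.15 and −0.03 in NeuNT replicates 1 to 4. The 13 synthesis and transport genes averaged 0.11, −0.22, 0.66 and −0.20 in NeuNT/H1074R tumours and −0.34, −0.33, 0.17 and 0.15 in NeuNT tumours. NeuNT/H1074R replicate 3 was at once the lowest tumour for chaperones and the highest for amino acid genes.

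The gap between both groups, chaperones minus amino acid genes, was −0.12, 0.14, −0.88 and 0.19 in NeuNT/H1074R tumours and 0.42, 0.44, −0.015 and −0.17 in NeuNT tumours. The means of −0.17 ± 0.49 and 0.17 ± 0.31 (SD, n = 4 each) differed by −0.33, less than the SD within genotypes of 0.411, and the ranges overlapped. Without NeuNT/H1074R replicate 3 the difference was −0.09, and the median difference of the amino acid genes was −0.05, against 0.14 with all tumours. Of the 13 chaperones, 9 had their lowest value in this tumour, where 13.6% of all genes tested did. Hsp90b1 had 11.27 there, against 11.40 to 11.93 elsewhere, Pdia3 10.74 against 10.98 to 11.46, and Canx 10.80 against 10.96 to 11.09.

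**Figure D4:**
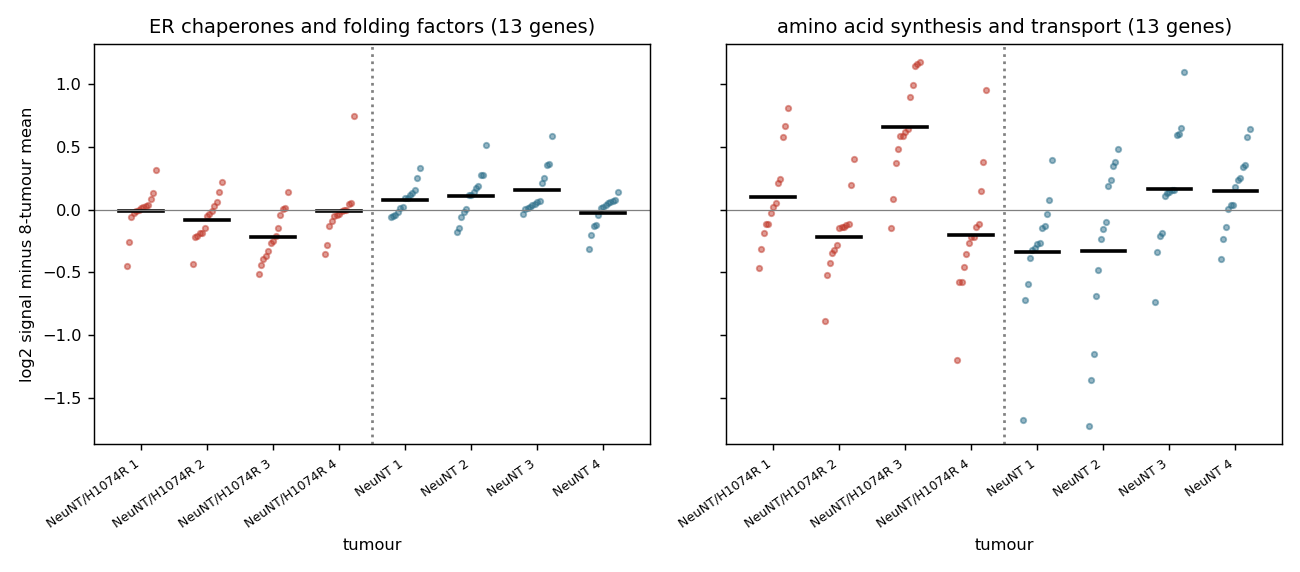
Deviation of each member from its 8-tumour mean (y axis, log2; points) by tumour (x axis; NeuNT/H1074R in red, NeuNT in blue), with the group mean as a bar. In NeuNT/H1074R replicate 3 the chaperones average −0.22 and the amino acid genes 0.66; the other 7 tumours lie between −0.08 and 0.15 for chaperones and between −0.34 and 0.17 for amino acid genes.

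Beside the 11.0% of all genes that were highest and the 13.6% that were lowest in this tumour, the other lists of the pathway ranked it as follows. Aminoacyl-tRNA synthetases, ATF4 targets that charge tRNAs, had 10 of 12 members measured, and 5 of the 10 were highest in NeuNT/H1074R replicate 3. Other ATF4 targets outside the members had 6 of 17 highest there, and 5 of 17 highest in NeuNT replicate 2, where 15.7% of all genes were highest. Of 23 other ER folding and glycosylation genes, 2 were lowest and 3 highest in NeuNT/H1074R replicate 3. ERAD genes outside the members had 5 of 16 lowest and 1 highest there. Sensors, eIF2α regulators and other stress regulators had 0 of 16 highest and 3 lowest there, and translocation genes 1 of 18 highest and 1 lowest.

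The same tumour differed in its cell markers. Its macrophage mean was 7.67, against 8.16 to 8.98 in the other tumours, with 10 of 12 macrophage markers lowest in it, and its fibroblast mean was 7.88, against 7.86 to 9.11. Its skeletal muscle mean was 6.75, against 6.91 in NeuNT/H1074R replicate 1 and 4.87 to 5.36 in the rest. Its luminal mean of 9.70 and cell cycle mean of 7.92 were the highest of all tumours, against 9.02 to 9.57 and 6.63 to 7.82 elsewhere. Among single genes, 2 of 14 luminal and 1 of 13 cell cycle genes had their highest value in it. The part of these markers in the chaperone and amino acid levels was not tested. Without both tumours with high muscle genes, a choice made after seeing the data, the chaperone median was −0.17, the amino acid median −0.13 and the difference of the gap 0.0002. One of the tumours removed, NeuNT/H1074R replicate 3, also had the most extreme gap of all. The values thus cannot separate muscle content from that tumour, and the part of muscle content was not tested.

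**Figure D5:**
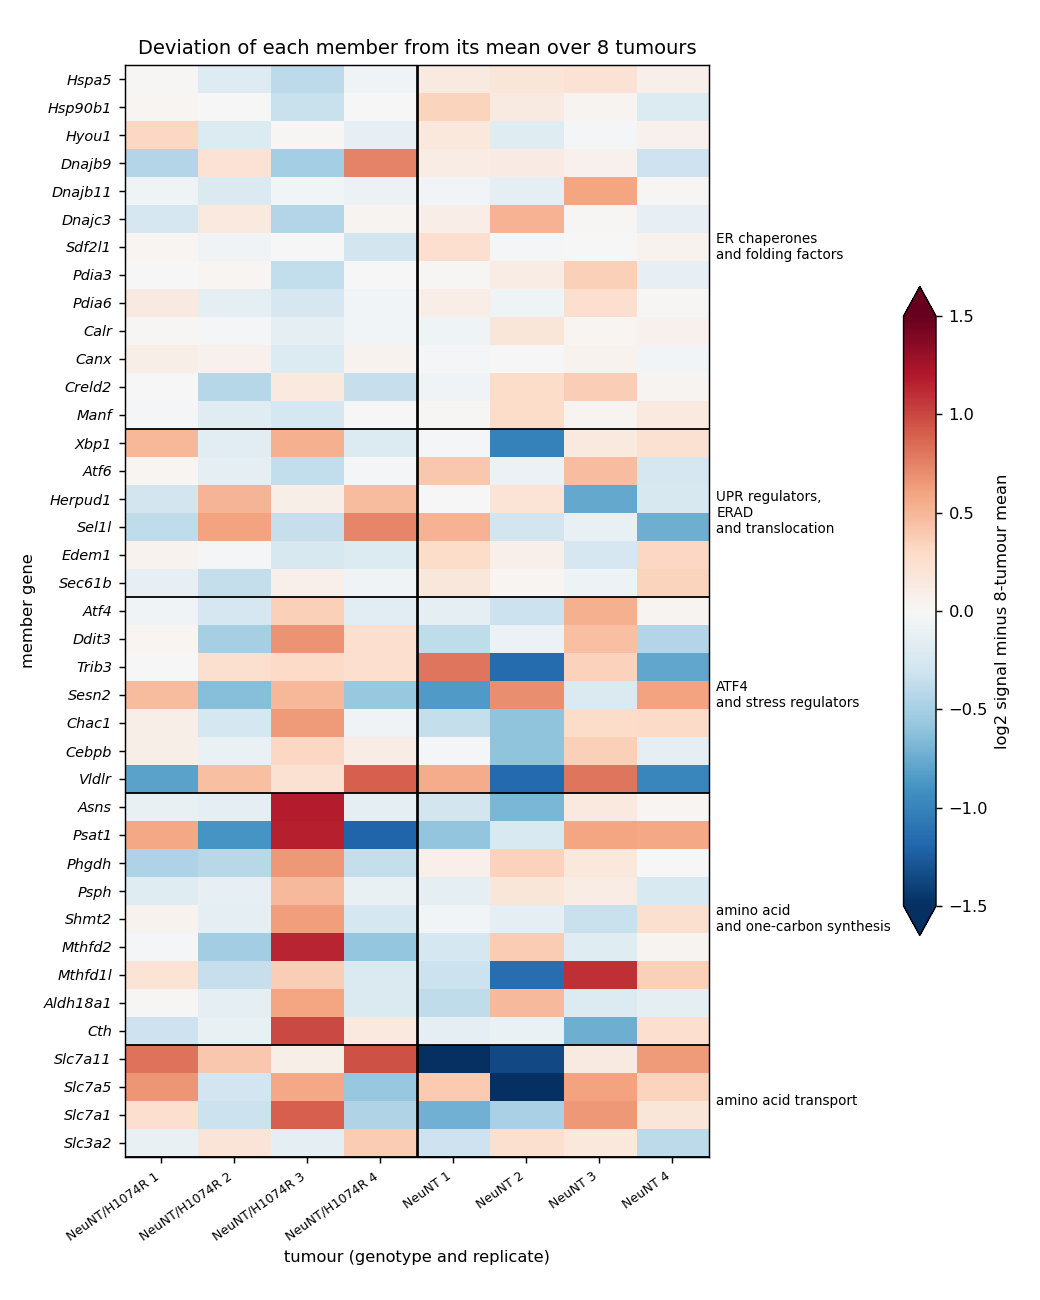
Deviation of each of the 39 members (rows, by role) from its 8-tumour mean in each tumour (columns; red above, blue below, log2 scale limited at 1.5 either way). The NeuNT/H1074R replicate 3 column is red for 9 of 9 synthesis enzymes, of which 8 have their highest value there, and pale blue for most chaperones.

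Correlations between members were taken with and without that tumour. Over 8 tumours the median Pearson correlation between synthesis enzymes was 0.57 (36 pairs), between chaperones 0.35 (78 pairs) and between chaperones and synthesis enzymes −0.28 (117 pairs), against 0.00 over all pairs of tested genes. These describe tumours that share an array platform and differ in cell content. Without NeuNT/H1074R replicate 3, the medians were 0.02, 0.15 and 0.10. That tumour was chosen for its extreme values in these same genes, and no other tumour was left out for comparison.

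For 6 pairs of members, correlations over the 8 tumours were tested by exact two-sided permutation, with p-values adjusted over the 6 pairs. Atf4 and Asns held like ranks across the tumours (Spearman rho 0.88, adjusted p = 0.0217; Pearson r 0.73, adjusted p = 0.0980; exact permutation). Leaving out the 2 tumours farthest from the median of Atf4, r was 0.78. Xbp1 and Dnajb9 ran opposite ways (rho −0.93, adjusted p = 0.0134; r −0.61, adjusted p = 0.134; exact permutation), with r −0.90 without the 2 farthest tumours. As deviations from the genotype means the r was 0.84 for Atf4 with Asns and −0.66 for Xbp1 with Dnajb9, and no correlation was computed over the 4 tumours of a single genotype.

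Hspa5 and Asns had r −0.73 (adjusted p = 0.0980) and rho −0.29 (adjusted p = 0.501; exact permutation), and r was −0.18 without NeuNT/H1074R replicates 2 and 3. Of these tumours, replicate 3 held the lowest Hspa5 (8.99) and the highest Asns (8.97). Replicate 2 lay below the 8-tumour mean for both Hspa5 (9.19 against 9.38) and Asns (7.65 against 7.79), so it did not add to the negative r. Hspa5 with Hsp90b1 had r 0.68 and rho 0.76 (adjusted p = 0.0980 and 0.0551; exact permutation), and r 0.37 without the same tumours. Asns with Psat1 had r 0.64 and rho 0.79 (adjusted p = 0.0980 and 0.0551; exact permutation), and r 0.67 without its 2 farthest tumours. Trib3 with Ddit3 had r 0.23 and rho 0.38 (adjusted p = 0.578 and 0.432; exact permutation), and r −0.29 without NeuNT replicates 2 and 4.

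Among the other pathway genes, none of those tested in 6 lists passed between genotypes (limma, lowest adjusted p = 0.978). Of 16 sensors, eIF2α regulators and other stress regulators, 10 had a difference above 0 and 6 below. Eif2ak1, the heme-regulated eIF2α kinase, was at −0.27 and Creb3l1 at 0.50. Eif2ak1 was at −0.17 without NeuNT replicate 3, and Creb3l1 ran from 0.32, without NeuNT replicate 4, to 0.75, without NeuNT replicate 1. Of 23 ER folding and glycosylation genes, 12 were above 0 and 11 below. Sil1, a nucleotide exchange factor of BiP, had 8.18, 8.23, 8.31 and 8.30 in NeuNT/H1074R tumours and 8.01, 7.68, 7.68 and 7.73 in NeuNT tumours. The groups did not overlap, where 1.59% of all genes were higher without overlap, and ran the opposite way from Hspa5, its partner, with a difference of 0.48 ± 0.12 (SE) that did not pass (limma, unadjusted p = 0.00345, adjusted p = 0.978). Stt3a, of the oligosaccharyltransferase, stood at 0.23.

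Of 16 ERAD genes, 5 were above 0 and 11 below. Syvn1, the HRD1 ligase that Sel1l serves, had 8.19, 8.18, 7.86 and 7.96 in NeuNT/H1074R tumours and 8.36, 8.36, 8.59 and 8.24 in NeuNT tumours. Its difference was −0.34 ± 0.13 (SE; limma, adjusted p = 0.978), without overlap, while that of Sel1l was above 0. Ufd1, a cofactor of the p97 extractor, differed by −0.40. Of 18 translocation genes 11 were above 0 and 7 below, with Sec63 at 0.26 and Ssr1 at 0.18. The tRNA synthetases had 7 above and 3 below, with Lars at 0.33 and Iars at 0.23, and other ATF4 targets 8 above and 9 below, with the folate enzyme Aldh1l2 at 0.25 and the mTORC1 inhibitor Ddit4 at 0.62. Without NeuNT/H1074R replicate 3, Lars was at 0.19 and Ddit4 at 0.37.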

How the data were processed

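RNA of each tumour was labelled with a whole-transcript kit and hybridised to 1 array. The values used are log2 signals as deposited, 1 column for every tumour; that the scale is log2 was inferred from their range. Tools named in the submitters' processing notes are Affymetrix Expression Console and Transcriptome Analysis Console. Their versions, and how background and normalization were handled, were not given in the sources used here. Of 41345 probes, 23521 had 1 symbol in the platform annotation. Genes with a mean in the lowest 25% (under 4.06) were left out as dim, leaving 16635 tested.

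The genotypes were compared by limma (version 3.58.1 under R 4.3.3; eBayes with an intensity trend). Its two-sided p-values were adjusted by Benjamini and Hochberg's method across the 16635 genes, at a threshold of 0.05. Simulated on 16635 genes for this comparison, 19.6% of genes changed 1.5-fold, 57.6% changed 2-fold and 87.9% changed 4-fold were recovered. On average 8.65 unchanged genes were called per run. Noise was drawn for each gene independently, unlike in real arrays, where genes vary together, so recovery there can differ. The chaperone differences were smaller than the smallest change simulated. Arrays carry no read depth, and their number limits the precision. Scores over the members were not tested.

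The members, marker lists and pathway lists were chosen with earlier results of these data known, so their direction is no independent evidence. Values in every tumour are given for Hspa5, Xbp1, Atf4, Ddit3, Asns, Slc7a11, the members of smallest p in each role group (4 chaperones, 3 elsewhere) and the most variable one; 2 genes of smallest p are named per pathway list, and Sil1 and Syvn1 were given in full after their values were seen. Older symbols were matched through RefSeq synonyms. Plots were drawn with matplotlib 3.10.9. Alternatives left out each tumour and changed the normalization, dim filter, probe rule, variance model or array weights.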

Additional observations from a re-analysis of the deposited data

Results flagged for a closer look

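In groups of 4 tumours, the lowest and highest values were checked for their gap to the nearest other tumour, relative to the group's range. Of 82 groups checked (78 of single members and 4 of the mean deviations of chaperones and of amino acid genes), 8 were past Dixon's critical value, where chance flags about 1 in 20. In NeuNT/H1074R replicate 3, 3 chaperones were far below the other tumours of the genotype: Hsp90b1 at 11.27 (others 11.59 to 11.64), Pdia3 at 10.74 (11.09 to 11.13) and Canx at 10.80 (11.07 to 11.09). In the same tumour, 3 synthesis enzymes were far above them: Asns at 8.97 (7.65 to 7.67), Phgdh at 6.27 (5.16 to 5.26) and Psph at 6.75 (6.08 to 6.15). The remaining flags were Slc7a5 in NeuNT replicate 2, at 8.66 (others 10.72 to 10.98), and Dnajb9 in NeuNT replicate 4, at 8.52 (8.91 to 8.96).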

How the results depend on the processing

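The count of 0 genes past the threshold held under all 15 alternatives, with 358 to 936 genes at an unadjusted p under 0.05, and the smallest adjusted p of any member was 0.821. The tests could resolve little: the median 95% interval reached 0.395 to either side. With single tumours left out, the chaperone median ran from −0.23 to −0.10, the amino acid median from −0.05 to 0.22 and the difference of the gap from −0.45 to −0.09; the extremes nearest 0, and the turned sign, were those without NeuNT/H1074R replicate 3, and the amino acid median stood at 0.22 without NeuNT/H1074R replicate 4 and at 0.017 when NeuNT replicate 1 was left out. In other settings these stood at −0.16 to −0.14, 0.03 to 0.19 and −0.33 to −0.23. With any single tumour left out, the difference stayed within 1.5 times its value for 4 members, Hspa5, Manf, Creld2 and Slc7a11, and moved further for the other 35. That of Slc7a11 ran from 0.76 to 1.53. Its low NeuNT replicates 1 and 2 (3.69 and 4.01) were never left out together, so its place among the 4 does not show that it holds without them. The signs of 13 of the 39 members changed in some alternative, the cause of which was not tested. Leaving out single tumours, the ranges were −0.11 to 0.063 for Hyou1, −0.24 to 0.18 for Dnajb9, −0.030 to 0.068 for Canx, −0.19 to 0.11 for Atf4, −0.42 to 0.091 for Sesn2, −0.59 to 0.20 for Psat1, −0.12 to 0.099 for Psph, −0.043 to 0.25 for Shmt2, −0.37 to 0.20 for Mthfd2, −0.37 to 0.37 for Mthfd1l, −0.051 to 0.31 for Aldh18a1, −0.35 to 0.43 for Slc7a5, −0.086 to 0.43 for Slc7a1 and −0.49 to 0.027 for Erbb2. Array weights gave 0.026 for Canx, −0.011 for Psph, −0.18 for Mthfd2, −0.10 for Mthfd1l and −0.017 for Slc7a5. With quantile normalization Hyou1 was 0.032 and Canx 0.044, and with centred arrays 0.0087 and 0.014. Trib3 with Ddit3 had r −0.29 without its 2 farthest tumours. The labels give no pairing of tumours between the genotypes, so no paired analysis was done.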
